A study of Homo sapiens with 15 samples.

Results

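The PI3K inhibitor LY294002 was compared with its solvent DMSO in MDA-MB-436 cells, a mesenchymal, triple-negative human breast cancer line that carries a BRCA1 mutation. Both groups were treated for 7 days and held 3 Illumina HumanHT-12 bead arrays each, so 6 of the 15 arrays of the study make up the comparison. The members were chosen by their titles, which name LY without AG in the one group and DMSO in the other. The other 9 arrays carried AG014699, a PARP1 inhibitor also named rucaparib, at 10 nM, at 100 nM, or at 100 nM together with LY294002. The study's text speaks of triplicates without saying that they were separate cultures, so the p-values speak to the spread among arrays alone, and that spread may be technical. The concentration of LY294002 is not given in the sources used here, and the line stands for 1 tumour only.

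PI3K is a lipid kinase that growth factor receptors switch on. Its product recruits the kinase AKT, which activates mTOR, a driver of protein and lipid synthesis, and keeps FOXO transcription factors out of the nucleus. Active PI3K and mTOR signalling also raises the sterol-regulated SREBP factors, which switch on the enzymes of cholesterol and fatty acid synthesis. LY294002 competes with ATP for PI3K, and it is known to bind other proteins too, among them mTOR, casein kinase 2 and BET bromodomain proteins.

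All values are log2 signals after background correction and normalization, changes are LY294002 minus DMSO, and SE is the standard error of the limma fit to all 15 arrays. A gene was tested if 3 or more of the 15 arrays detected its probe (detection p below 0.05), which kept 23680 of 48105 probes and 12300 genes. The 1685 probes detected on exactly 3 arrays had a median deposited signal of 114, and the 2894 probes detected on exactly 2 arrays, which were left out, one of 111. Over all genes the arrays of one group correlated at 0.979 to 0.99 and LY294002 with DMSO arrays at 0.977 to 0.987, so most of the profile was shared. LY294002 array 1 stood a little apart, at 0.984 and 0.979 with the other LY294002 arrays, which correlated at 0.989 with each other. Of 13 markers of the line 6 were measured, and their mean DMSO signals included 13.11 for the intermediate filament gene VIM, 13.23 for the surface receptor gene CD44 and 10.86 for the caveolin gene CAV1. The oestrogen receptor gene ESR1 was not well above background on any LY294002 array. Of 17 leukocyte and endothelial markers 4 were measured and 0 passed, with changes from -0.58 (CD14) to -0.03.

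With LY294002, 11 of 34 measured genes of inflammatory and secreted factors, 4 of 10 S100 genes and 3 each of 19 cholesterol and 15 fatty acid synthesis genes fell, while 5 of 34 histone genes, 4 of 30 MAPK feedback and immediate early genes and 3 of 29 FOXO targets rose. Most members of each of these lists did not pass. Each array measured bulk RNA, so fewer cells that express a gene and less of its RNA per cell cannot be told apart. At an adjusted p under 0.05, 138 of 12300 genes changed, which is 1.12% of the genes tested. Of these 63 rose (0.512%) and 75 fell (0.61%), and 1655 genes had an unadjusted p under 0.05. The 3 LY294002 arrays lay on one side of the 3 DMSO arrays for all 138, a separation that 18.1% of the tested genes showed whatever the test. The changes were mostly small: 35 called genes (0.285%) moved at least 2-fold, 9 upward and 26 downward, and the smallest called change was 0.49. Other ways to treat background gave smaller changes: 8 genes passed 2-fold with the signals as deposited and 15 with a larger offset. Without background correction 33 of 90 called genes selected for naming moved by over 1.5 times, and 6 lost the call. Leaving out DMSO array 1, 2 or 3 gave 82, 64 and 72 called genes, and leaving out LY294002 array 1, 2 or 3 gave 94, 83 and 113. With only the 6 arrays of the comparison in the fit it was 23, all of them among the 138. Of 7103 probes without a single gene symbol 0 passed in limma (0%), with 565 at an unadjusted p under 0.05 and a smallest adjusted p of 0.0512.

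The 5 largest falls were those of S100A8, C6orf58, CXCL1, CSF3 and S100A9. S100A8, which encodes one subunit of the calcium-binding protein calprotectin, had signals of 9.0, 9.24 and 8.93 on DMSO arrays 1 to 3 and of 7.01, 7.04 and 6.76 on LY294002 arrays 1 to 3. It fell by 2.12 on the log2 scale (SE 0.20, adjusted p = 5.48e-05), with a wide gap between the groups. S100A9, the gene of the other subunit, had 11.67, 11.50 and 11.31 against 10.16, 9.74 and 9.61, and fell by 1.66 (SE 0.16, adjusted p = 5.48e-05). C6orf58 had 7.12, 7.32 and 7.00 against 4.87, 5.39 and 4.87, a change of -2.10 (SE 0.18) that was -0.94 without background correction. C6orf58 was well above background on 1 of the 3 LY294002 arrays only, and the groups lay far apart. OLR1, a receptor for oxidised low density lipoprotein, had 9.39, 9.53 and 9.39 against 7.71, 8.12 and 7.87, and fell by 1.53 (SE 0.14, adjusted p = 5.48e-05). Among the next genes in size were TMEM154 at -1.48 (SE 0.15), TRIML2 at -1.32 (SE 0.15), the hair keratin gene KRT34 at -1.27 (SE 0.17, well above background on 1 LY294002 array) and the collagen gene COL8A1 at -1.16 (SE 0.16). SPOCD1 was not well above background on any LY294002 array, so it was at least 2.09-fold lower (adjusted p = 0.000343), or 1.48-fold without background correction. Without it TRIML2 was at -0.68, KRT34 at -0.49, COL8A1 at -0.64, RASGRP1 at -0.71 and FADS2, described with its list, at -0.48. RASGRP1, an activator of Ras, fell by 1.16 (SE 0.23, adjusted p = 0.0219), a call that ended without DMSO array 1, 2 or 3 or LY294002 array 1 (adjusted p = 0.0528 to 0.0963).

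**Figure D1:**
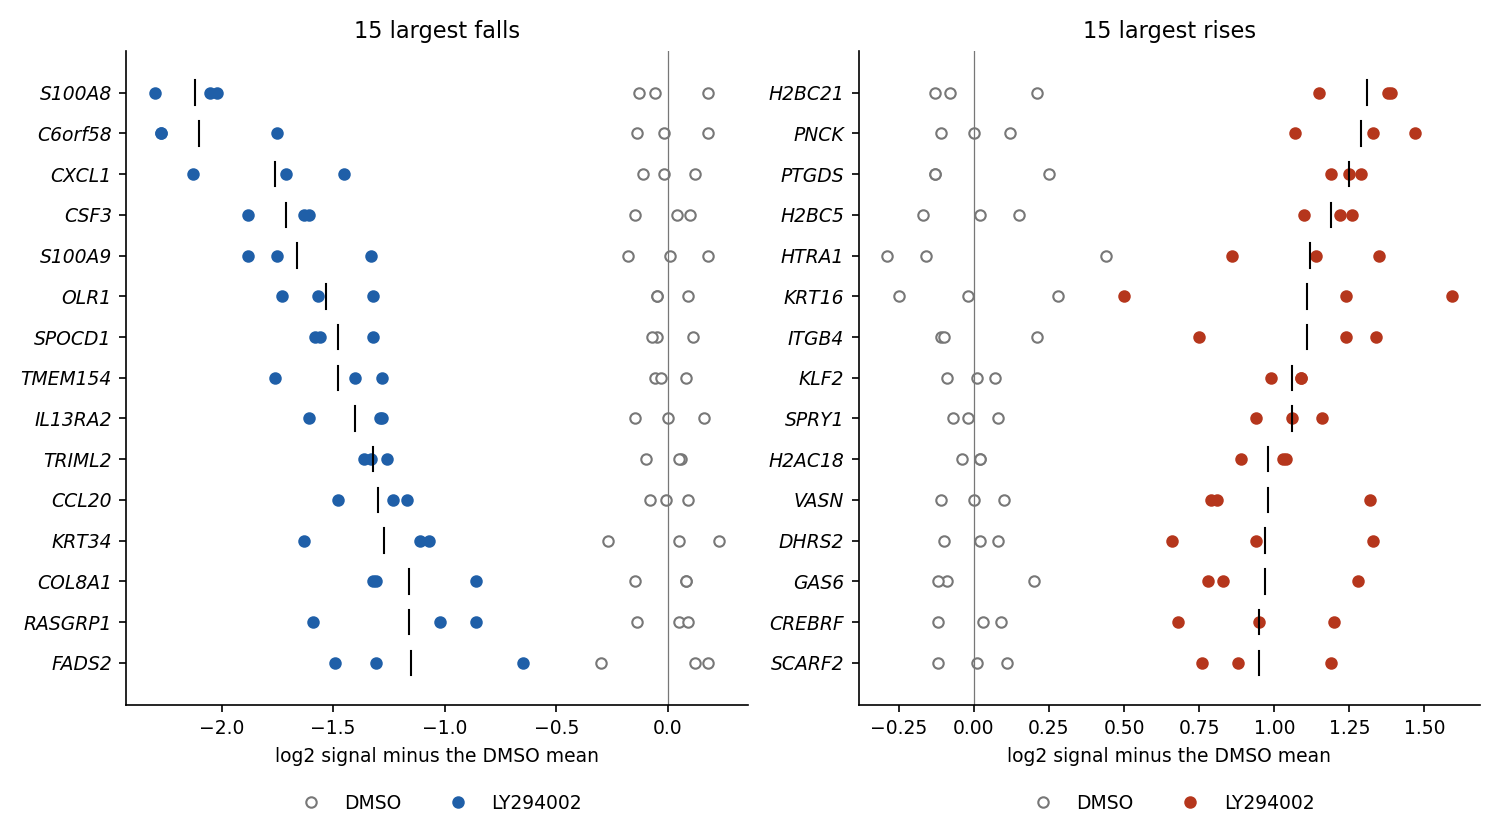
Log2 signal of each array minus the DMSO mean of the gene, for the 15 genes with the largest fall (left) and the 15 with the largest rise (right) among the called genes. Open circles are the 3 DMSO arrays, filled circles the 3 LY294002 arrays, and vertical marks the fitted change. The groups do not overlap for any of the 30 genes, and KRT16 has the widest spread of LY294002 arrays.

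The largest rises were smaller. H2BC21, a histone H2B gene, had signals of 6.58, 6.87 and 6.53 on the DMSO arrays and of 8.04, 7.81 and 8.05 on the LY294002 arrays, and rose by 1.31 (SE 0.15, adjusted p = 0.000324). PNCK, a calmodulin-dependent kinase gene, had 6.86, 6.75 and 6.98 against 8.33, 8.19 and 7.93, and rose by 1.29 (SE 0.16, adjusted p = 0.000555). PTGDS, the gene of a prostaglandin D2 synthase, had 5.46, 5.84 and 5.46 against 6.84, 6.88 and 6.78, and rose by 1.25 (SE 0.21, adjusted p = 0.00712). In each of these 3 genes every LY294002 array lay above every DMSO array, as in every gene called as a rise. ITGB4, the integrin beta 4 gene and well above background on 1 DMSO array only, rose by 1.11 (SE 0.16), VASN, whose product binds TGF-beta, by 0.98 (SE 0.14), and GAS6, the ligand of the AXL receptor, by 0.97 (SE 0.16). KRT16, a keratin gene of stressed epidermis, was not well above background on any DMSO array and was at least 1.73-fold higher (adjusted p = 0.048). Its LY294002 signals were 6.38, 5.29 and 6.03, and its call ended without any DMSO array or without LY294002 array 1 or 3 (adjusted p = 0.071 to 0.183), and also without background correction, where its change was 1.35-fold (adjusted p = 0.057). Without that correction H2BC21 was at 0.84, PTGDS at 0.57, ITGB4 at 0.41, DHRS2 at 0.59 and SCARF2 at 0.47, all still called. HTRA1, a secreted serine protease gene, rose by 1.12 (SE 0.22, adjusted p = 0.0178), which ended without DMSO array 2 or 3 or LY294002 array 1 or 3 (adjusted p = 0.0543 to 0.0963). DHRS2, a dehydrogenase gene, rose by 0.97 (SE 0.17), which ended without DMSO array 3 (adjusted p = 0.0537). The scavenger receptor gene SCARF2 rose by 0.95 (SE 0.16), which ended without DMSO array 2 (adjusted p = 0.0522).

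Calls in the list of inflammatory and secreted factors were all falls. Of 34 measured cytokine, chemokine and protease genes 11 fell (32.4%, against 0.61% of all genes), 0 rose, and the other 23 did not pass. The median change of the list was -0.53, against -0.01 over all genes. CXCL1, a chemokine that attracts neutrophils, had signals of 8.65, 8.74 and 8.88 on the DMSO arrays and of 6.63, 7.31 and 7.05 on the LY294002 arrays, and fell by 1.76 (SE 0.15, adjusted p = 5.15e-05). CSF3, the gene of granulocyte colony-stimulating factor, had 6.75, 6.69 and 6.50 on the DMSO arrays and was not well above background on any LY294002 array, so it was at least 2.80-fold lower (adjusted p = 5.48e-05), a bound that holds for these background-corrected signals and was not reached without the correction (1.61-fold). IL13RA2, a decoy receptor for interleukin 13, was likewise undetected with LY294002 and at least 1.92-fold lower (adjusted p = 0.00204), against 1.45-fold without background correction. CCL20, which attracts lymphocytes and dendritic cells, had 9.80, 9.73 and 9.90 against 8.58, 8.33 and 8.64, and fell by 1.30 (SE 0.12, adjusted p = 5.48e-05). None of these 4 genes had overlapping groups, like every called gene. Their calls held without any 1 of the 6 arrays.

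The other 7 members that fell are named here after their values were seen, to complete the list. The neutrophil chemokine gene CXCL8 fell by 1.14 (SE 0.13), TNFAIP6, whose product binds hyaluronan, by 1.09 (SE 0.17), and the cytokine genes IL6 and IL1B by 0.93 (SE 0.14) and 0.91 (SE 0.12). The endocan gene ESM1 fell by 1.04 (SE 0.20), CXCL2 by 0.88 (SE 0.19) and LIF, a cytokine of the interleukin 6 family, by 0.69 (SE 0.13). The ESM1 call ended without DMSO array 3 or LY294002 array 1 or 2 (adjusted p = 0.0668 to 0.0804). The CXCL2 call ended without DMSO array 1 or 3 or LY294002 array 2 or 3 (adjusted p = 0.101 to 0.137), and the LIF call without DMSO array 2 or 3 or LY294002 array 1 or 2 (adjusted p = 0.0544 to 0.103). Without background correction TNFAIP6 was at -0.65, ESM1 at -0.50 and LIF at -0.36, all still called. Members that did not pass included PTGS2, the inducible cyclooxygenase gene, at -1.24 (SE 0.32, adjusted p = 0.086), CCL2 at -0.76 (adjusted p = 0.0683) and the NF-kB inhibitor gene NFKBIA at 0.03 (adjusted p = 0.948).

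CXCL1, CXCL2 and CXCL8 lie on chromosome 4, and 8 of the 11 genes had a promoter in the RefSeq table of build GRCh38.p14. The 250 bases before the start were searched on both strands for a kappaB-like element, the letters GGG, any 2 bases and TTTCC, a motif chosen after the list was seen to fall. It was present in 4 of these 8 windows (50%), against 1.99% of the 9813 tested genes with a promoter. Of the 61 called genes that fell 5 held it (8.2%), but these include the same 4, and of the 55 that rose 0%. The share among members of the list that did not fall was not counted, so the 50% cannot be tied to the fall. A match is only a match of letters. The 4 windows are printed because their genes fell together, 5′ to 3′ on the gene's strand, with the matched bases in capitals.
CXCL1, chr4:73869143-73869392, plus strand: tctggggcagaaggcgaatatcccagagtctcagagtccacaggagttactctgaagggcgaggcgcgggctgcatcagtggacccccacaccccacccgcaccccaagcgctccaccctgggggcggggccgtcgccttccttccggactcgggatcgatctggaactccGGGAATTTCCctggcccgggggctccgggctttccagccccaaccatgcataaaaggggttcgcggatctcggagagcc
CXCL2, chr4:74099196-74099445, minus strand: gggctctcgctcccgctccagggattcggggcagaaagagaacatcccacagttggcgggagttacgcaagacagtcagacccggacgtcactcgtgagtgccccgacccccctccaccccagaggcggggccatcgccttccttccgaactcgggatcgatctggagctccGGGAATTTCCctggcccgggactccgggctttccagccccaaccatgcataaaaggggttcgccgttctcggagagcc
CCL20, chr2:227813592-227813841, plus strand: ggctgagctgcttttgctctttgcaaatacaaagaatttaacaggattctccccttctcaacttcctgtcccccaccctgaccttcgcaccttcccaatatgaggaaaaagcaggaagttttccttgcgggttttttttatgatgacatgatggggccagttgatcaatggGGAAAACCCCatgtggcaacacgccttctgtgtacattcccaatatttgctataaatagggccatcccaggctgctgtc
IL6, chr7:22726950-22727199, plus strand: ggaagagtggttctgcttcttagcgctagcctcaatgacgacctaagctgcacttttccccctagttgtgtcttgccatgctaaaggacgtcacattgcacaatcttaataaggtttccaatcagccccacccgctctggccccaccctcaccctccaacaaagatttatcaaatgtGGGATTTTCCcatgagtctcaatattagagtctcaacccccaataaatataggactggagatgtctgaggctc
The match ends 69 bases before the start in CXCL1 and CCL20, 68 in CXCL2 and 63 in IL6, and in CCL20 it lies on the opposite strand. CXCL1 and CXCL2 are close paralogues, so their windows are not independent.

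**Figure D2:**
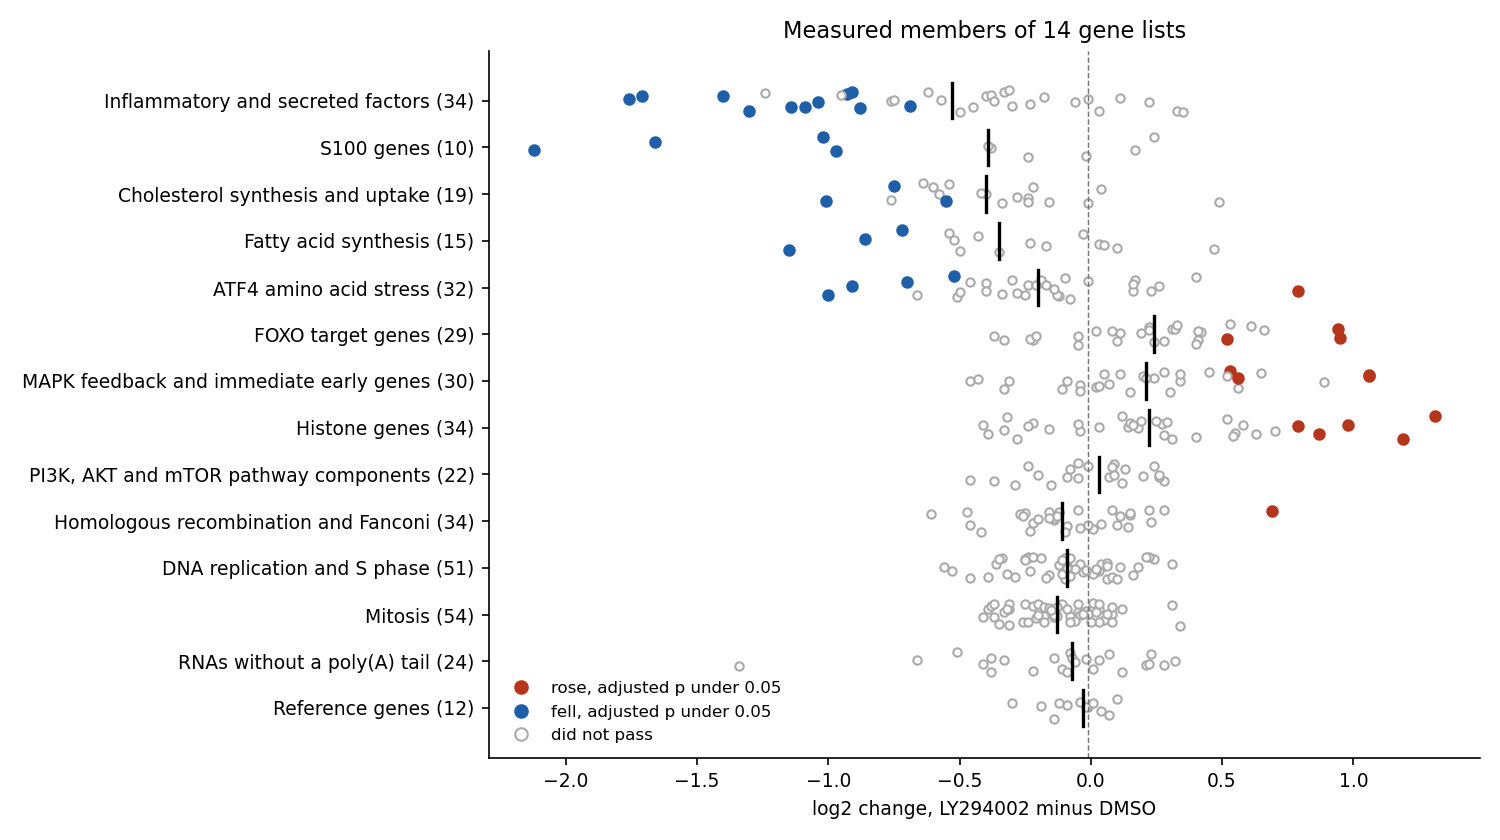
Log2 change (LY294002 minus DMSO) of every measured member of 14 gene lists, with the number of measured members in brackets. Filled circles passed the test, open circles did not, black bars are list medians and the dashed line is the median of all genes. The inflammatory, S100 and lipid synthesis lists lie to the left, and the FOXO, MAPK feedback and histone lists to the right, with most members open.

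In the S100 family 4 of 10 measured genes fell (40%), 0 rose, and the median was -0.39. All 4 lie on chromosome 1. Beside S100A8 and S100A9, S100A3 had signals of 8.92, 8.92 and 9.28 against 8.09, 8.05 and 7.92 and fell by 1.02 (SE 0.17, adjusted p = 0.00583). S100A4, whose product is linked to cell motility, fell by 0.97 (SE 0.17, adjusted p = 0.0119), a call that ended without DMSO array 3 or LY294002 array 2 (adjusted p = 0.0551 and 0.0647). The family did not move as one: S100A6 was at -0.02 and S100A10 at 0.17, and neither passed.

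Genes of lipid synthesis lay lower, with few past the test. In the cholesterol list 3 of 19 measured genes fell (15.8%), 0 rose, and the median was -0.40. INSIG1, whose product holds SREBP factors in the endoplasmic reticulum and which is itself an SREBP target, had signals of 11.53, 11.75 and 11.60 against 10.51, 10.71 and 10.63. It fell by 1.01 (SE 0.12, adjusted p = 0.00042). HMGCS1, the synthase that feeds the mevalonate pathway, had 10.23, 10.32 and 10.27 against 9.51, 9.58 and 9.49, and fell by 0.75 (SE 0.12, adjusted p = 0.00441). The arrays of each group lay close together for HMGCS1, and the groups lay far apart. The sterol oxidase gene MSMO1 fell by 0.55 (SE 0.12, adjusted p = 0.0461), a call that ended without any 1 of the 6 arrays (adjusted p = 0.0728 to 0.141).

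In the fatty acid list 3 of 15 genes fell (20%), 0 rose, and the median was -0.35. SCD, the desaturase that makes monounsaturated fatty acids, had signals of 12.87, 13.15 and 12.90 against 12.21, 12.31 and 12.25, and fell by 0.72 (SE 0.13, adjusted p = 0.016). The desaturase gene FADS2 fell by 1.15 (SE 0.24, adjusted p = 0.0333) and the fatty acid synthase gene FASN by 0.86 (SE 0.20, adjusted p = 0.048). Their groups did not overlap, which held for every called gene, and these calls were close to the threshold. The SCD call ended without DMSO array 2 or LY294002 array 1 (adjusted p = 0.0532 and 0.0949), that of FADS2 without DMSO array 1 or 2 or LY294002 array 1 or 3 (adjusted p = 0.101 to 0.141), and that of FASN without any 1 of the 6 arrays (adjusted p = 0.0668 to 0.172). SREBF1, the gene of the SREBP factor of fatty acid synthesis, was at -0.50 (SE 0.22, adjusted p = 0.335), and its cholesterol counterpart SREBF2 at 0.04 (adjusted p = 0.969). The sterol element TCACNCCAC matched 0 of the 3 cholesterol and 0 of the 2 fatty acid promoters in the table, against 0.846% of the tested genes, which says nothing of the factor. The window of INSIG1, printed because INSIG1 is the gene whose response to LY294002 differed with AG014699, held an E-box, CACGTG, in capitals 49 bases before the start.
INSIG1, chr7:155297628-155297877, plus strand: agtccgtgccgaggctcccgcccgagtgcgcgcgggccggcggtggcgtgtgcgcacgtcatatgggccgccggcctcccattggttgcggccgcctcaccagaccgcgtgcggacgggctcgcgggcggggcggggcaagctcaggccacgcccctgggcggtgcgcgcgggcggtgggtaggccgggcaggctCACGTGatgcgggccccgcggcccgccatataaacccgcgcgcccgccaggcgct
An E-box stood in 8.91% of the windows of tested genes.

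Of 32 measured ATF4 targets, the genes of the amino acid stress response, 4 fell (12.5%), 1 rose (3.12%), and the median was -0.20. The 4 were PSPH, PSAT1 and PHGDH, which encode enzymes that make serine, and DDIT4. PSPH had signals of 9.83, 9.64 and 9.53 against 8.78, 8.81 and 8.68 and fell by 0.91 (SE 0.15, adjusted p = 0.00536). PSAT1 had 10.61, 10.77 and 10.75 against 10.01, 10.01 and 10.00 and fell by 0.70 (SE 0.11, adjusted p = 0.00441). PHGDH fell by 0.52 (SE 0.11, adjusted p = 0.0249), a call that ended without any 1 of the 6 arrays (adjusted p = 0.051 to 0.119). DDIT4, the gene of the mTOR inhibitor REDD1, had signals of 9.27, 9.23 and 9.17 against 8.40, 8.08 and 8.20 and a fall of 1.00 (SE 0.12, adjusted p = 0.000343). ATF3, a stress transcription factor gene, moved the other way and rose by 0.79 (SE 0.13, adjusted p = 0.00829). The ATF4 gene itself was at -0.19 (adjusted p = 0.498).

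Of 29 measured FOXO target genes 3 rose (10.3%, against 0.512% of all genes), 0 fell, and the median was 0.24. CREBRF, a regulator of CREB3 factors, had signals of 8.06, 7.85 and 8.0 against 8.65, 8.92 and 9.17 and rose by 0.95 (SE 0.13, adjusted p = 0.00166). IRS2, the insulin receptor substrate that links receptors to PI3K, had 7.32, 7.02 and 7.11 against 8.09, 8.25 and 7.93 and rose by 0.94 (SE 0.17, adjusted p = 0.0112). TXNIP, an inhibitor of glucose uptake, rose by 0.52 (SE 0.12, adjusted p = 0.0471). All 3 lay apart from DMSO on every array, as every called gene did, and only the CREBRF call held without each of the 6 arrays. The IRS2 call ended without DMSO array 2 or 3 or LY294002 array 2 (adjusted p = 0.0524 to 0.0648) and the TXNIP call without any 1 of the 6 (adjusted p = 0.0834 to 0.158). Other FOXO targets did not pass, such as BCL2L11, which encodes the death protein BIM, at 0.53 (adjusted p = 0.403) and CCNG2 at 0.61 (adjusted p = 0.236). The FOXO element GTAAACA was found in the window of TXNIP, 117 bases before the start, and in 1.91% of the windows of tested genes, while CREBRF held a pair of E-boxes and IRS2 none of the 5 motifs searched.
TXNIP, chr1:145996580-145996829, minus strand: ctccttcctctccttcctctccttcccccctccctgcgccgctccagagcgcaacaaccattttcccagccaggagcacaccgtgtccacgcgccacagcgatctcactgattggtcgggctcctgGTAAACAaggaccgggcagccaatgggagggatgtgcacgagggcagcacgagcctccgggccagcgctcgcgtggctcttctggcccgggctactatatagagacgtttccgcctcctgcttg
CREBRF, chr5:173056102-173056351, plus strand: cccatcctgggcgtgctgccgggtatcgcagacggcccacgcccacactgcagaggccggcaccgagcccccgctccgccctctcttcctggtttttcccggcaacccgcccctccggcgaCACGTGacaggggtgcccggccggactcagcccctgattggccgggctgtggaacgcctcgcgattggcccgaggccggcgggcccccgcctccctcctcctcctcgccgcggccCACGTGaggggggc

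The genes of the pathway itself changed little. Of 22 measured components of PI3K, AKT and mTOR signalling 0 passed in limma, with changes from -0.46 to 0.28 and a median of 0.03. The catalytic subunit gene PIK3CB was at -0.05 (SE 0.18), the regulatory subunit gene PIK3R1 at 0.20 (SE 0.13), AKT1 at 0.07 (SE 0.18) and MTOR at 0.13 (SE 0.13). PIK3CA, the gene of another catalytic subunit, was not analysed here. Among 22 receptor tyrosine kinase and adaptor genes 2 rose (9.09%), IRS2 and FGFR3, a fibroblast growth factor receptor, at 0.80 (SE 0.14, adjusted p = 0.0106). The FGFR3 call ended without DMSO array 3 (adjusted p = 0.0564). FGFR3 was at 0.38 without background correction. In the authors' deposited log2 values, limited to probes with no blank, another FGFR3 probe stood for the gene and gave -0.12. The probes of FGFR3 thus differed.

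In the list of MAPK feedback and immediate early genes 4 of 30 rose (13.3%), 0 fell, and the median was 0.21. KLF2, a transcription factor of quiescent cells, had signals of 10.56, 10.46 and 10.62 against 11.64, 11.54 and 11.64, and rose by 1.06 (SE 0.11, adjusted p = 7.99e-05). SPRY1, an inhibitor of receptor tyrosine kinase signalling, had 6.85, 6.70 and 6.75 against 7.83, 7.93 and 7.71, and rose by 1.06 (SE 0.20, adjusted p = 0.0166). MYC, a growth-promoting transcription factor gene, had 10.26, 10.34 and 10.30 against 10.89, 10.75 and 10.93, and rose by 0.56 (SE 0.11, adjusted p = 0.0162). The groups of these 3 genes did not overlap, which held for every called gene. DUSP1, a MAPK phosphatase gene, rose by 0.53 (SE 0.11, adjusted p = 0.038). Of these the KLF2 call held without each of the 6 arrays. The SPRY1 call ended without DMSO array 2 or 3 or LY294002 array 1 or 2 (adjusted p = 0.0532 to 0.0843), and SPRY1 was at 0.67 without background correction. The MYC call ended without any DMSO array or without LY294002 array 1 or 3 (adjusted p = 0.0521 to 0.0718), and that of DUSP1 without any 1 of the 6 (adjusted p = 0.0586 to 0.136). The immediate early genes FOS at 0.89 (SE 0.24, adjusted p = 0.0921) and EGR1 at 0.56 (adjusted p = 0.0755) did not pass.

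Of 34 measured histone genes 5 rose (14.7%), 0 fell, and the median was 0.22. H2BC5 had signals of 7.78, 7.59 and 7.91 against 8.86, 8.98 and 9.02 and rose by 1.19 (SE 0.13, adjusted p = 0.000151). H2AC18 had 9.86, 9.80 and 9.86 against 10.88, 10.73 and 10.87 and rose by 0.98 (SE 0.11, adjusted p = 0.000312), but its most variable probe gave 0.63 (adjusted p = 0.271). H4C8 rose by 0.87 (SE 0.18), a call that ended without DMSO array 2 or 3 or LY294002 array 2 or 3 (adjusted p = 0.0643 to 0.142) and without background correction (0.40, adjusted p = 0.0542). H2BC12 rose by 0.79 (SE 0.14), which ended without DMSO array 2 or LY294002 array 2 (adjusted p = 0.0557 and 0.0707). With H2BC21, the called members were copies of H2A, H2B and H4 on chromosomes 1 and 6. Histone copies resemble each other closely, so a probe may read several. Most histone RNAs lack a poly(A) tail, but whether those of the called copies do was not measured. The 24 measured members of a list of other RNAs without a tail had a median of -0.07, a range of -1.34 to 0.32 and 0 calls in limma. The S phase list had 0 calls among 51 genes and a median of -0.09. Whether tails or the cell cycle had a part in the histone changes was not tested. H2BC21 and MYC also stand in a list of genes that respond to BET inhibitors, of which 11 were measured. In it 2 rose (18.2%, against 0.512% of all genes), 1 fell (9.09%, against 0.61%) and 8 did not pass. The gene that fell was IL7R, the interleukin 7 receptor gene, at -0.69 (SE 0.15, adjusted p = 0.0461, and 0.0641 to 0.158 without any 1 of the 6 arrays). Whether BET proteins had a part in these changes was not tested. HEXIM1, also in that list, was well above background on 1 DMSO and 1 LY294002 array only, so its value of 0.02 gives no measure of a change.

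Smaller numbers stood in the other lists. CCN2, a matricellular gene and YAP target, had signals of 9.86, 9.86 and 9.82 against 10.53, 10.86 and 10.63, and rose by 0.83 (SE 0.13, adjusted p = 0.00441). GADD45B, a stress gene in the YAP list, rose by 0.60 (SE 0.13), a call that ended without any DMSO array or without LY294002 array 2 or 3 (adjusted p = 0.0805 to 0.141). The matrix gene TNC, which encodes tenascin C, fell by 1.08 (SE 0.19), which ended without DMSO array 2 or 3 or LY294002 array 3 (adjusted p = 0.0507 to 0.0751). ID2, an inhibitor of differentiation, rose by 0.92 (SE 0.17), which ended without DMSO array 1 or 2 or LY294002 array 2 or 3 (adjusted p = 0.0586 to 0.0949), and was at 0.61 without background correction. In DNA repair XRCC2, a gene of homologous recombination, rose by 0.69 (SE 0.14, adjusted p = 0.0266), the 1 call among 34 genes, which ended without DMSO array 1 or 2 or LY294002 array 1 or 2 (adjusted p = 0.0686 to 0.13). BRCA1 was at 0.28 (adjusted p = 0.6) and PARP1, the target of AG014699, at -0.18 (adjusted p = 0.65), while BRCA2 was not analysed here. The interferon gene RSAD2 fell by 0.67 (SE 0.15, adjusted p = 0.044, and 0.0779 to 0.147 without any 1 of the 6 arrays). The ribosomal protein gene RPL29 fell by 0.65 (SE 0.12), which ended without DMSO array 1 or 3 or LY294002 array 1 (adjusted p = 0.0555 to 0.0801). SDF2L1, of the unfolded protein response, fell by 0.70 (SE 0.14), which ended without DMSO array 1 or 3 or LY294002 array 2 or 3 (adjusted p = 0.0631 to 0.0863).

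Of the 41 lists 19 held no called gene. Mitosis had 0 calls among 54 genes, with a median of -0.13 and changes from -0.41 to 0.34, and CDK inhibitors had 0 among 12. Lysosome and autophagy genes had 0 among 45, and the nuclear-encoded respiratory chain 0 among 39. UQCR10, a respiratory chain gene outside that list, fell by 0.79 (SE 0.14, adjusted p = 0.00958), a call that ended without DMSO array 1 (adjusted p = 0.0503). Its change was -0.89 to -0.43 over the processing alternatives. CCND1, the cyclin D1 gene, was at 0.05 and CYP1B1, an aryl hydrocarbon receptor target, at 0.53 (adjusted p = 0.26).

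The combination and 100 nM AG014699 arrays gave the change by LY294002 again, from 6 arrays outside the DMSO and LY294002 means. There 41 genes (0.333%) were called, 13 higher (0.106%) and 28 lower (0.228%) with LY294002, and 1486 had an unadjusted p under 0.05. Of the 138 genes 22 were called in the same direction and 0 in the opposite one. The 22 are 15.9% of the 138 and 53.7% of the 41. Both sets of calls come from the same fit to all arrays and share the variance of each gene. The overlap in calls is therefore not independent evidence. The sign was the same for 122 of the 138 genes (88.4%), against 57.1% of all genes. Of the 22 genes 9 were in the list of inflammatory and secreted factors, which held 11 of the 138 genes and 34 of the 12300 tested. CSF3 was at -1.73 (adjusted p = 0.000325), CXCL2 at -1.50 (adjusted p = 0.00147), CXCL1 at -1.43 (adjusted p = 0.000357), IL13RA2 at -1.40 (adjusted p = 0.00464) and IL6 at -1.38 (adjusted p = 0.000357) when LY294002 was added to AG014699. In this background 13 of the 34 inflammatory genes were lower, with a list median of -0.70. The FOXO, MAPK feedback and histone lists had medians of 0.23, 0.22 and 0.21 there. The cholesterol and fatty acid lists, with medians of -0.40 and -0.35 without AG014699, each had a median of -0.03 with it and 0 calls in limma. With 100 nM AG014699 alone these lists already had medians of -0.28 and -0.70 against DMSO. The difference between the backgrounds passed for 1 cholesterol gene, INSIG1, and for 0 fatty acid genes.

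**Figure D3:**
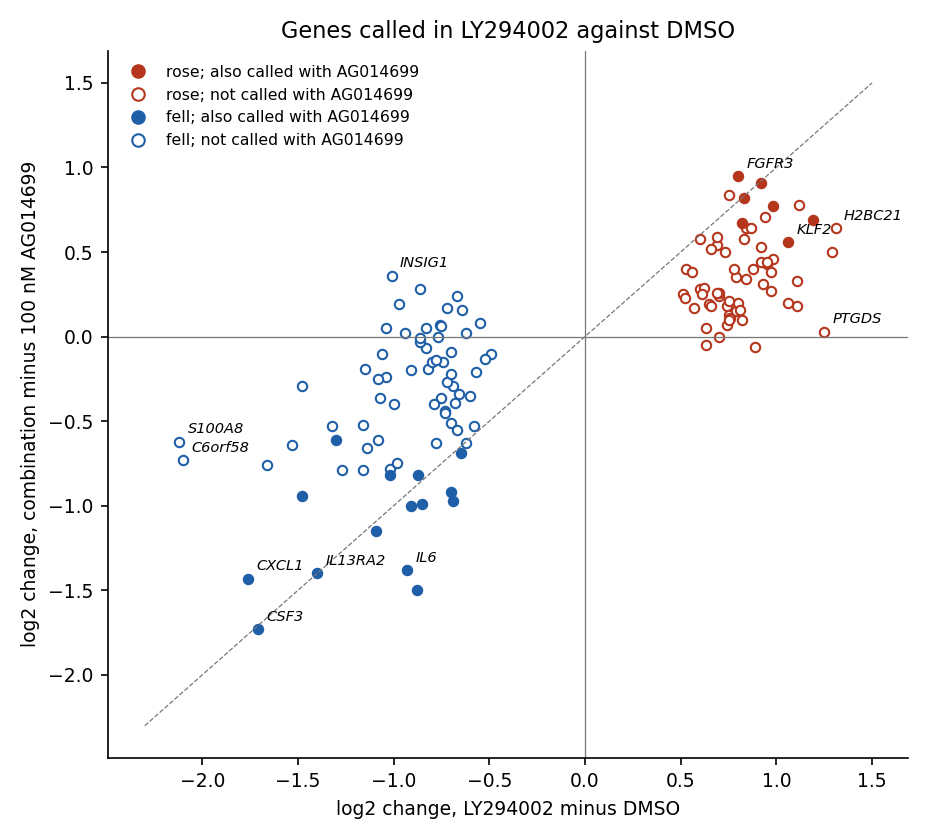
Change by LY294002 without AG014699 (x axis) and with 100 nM AG014699 (y axis) on the log2 scale for the 138 genes called in LY294002 against DMSO. Filled circles were also called on the y axis and the dashed line marks equal changes. The genes were chosen by the x axis, and 122 of them have the same sign on both axes.

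Whether the change itself differed with AG014699 was tested as an interaction. INSIG1 was the 1 gene of 12300 that passed (0.00813%), and 889 had an unadjusted p under 0.05. INSIG1 stood at -1.01 without AG014699 and at 0.36 (adjusted p = 0.238) with it, a difference of 1.37 (adjusted p = 0.012). Its signals were 10.66, 10.31 and 10.35 with 100 nM AG014699 and 10.81, 10.80 and 10.79 with the combination, so both lay near the LY294002 level. Leaving out DMSO array 2 or 3, 100 nM AG014699 array 2 or 3, or any 1 combination array ended the call (adjusted p = 0.053 to 0.0642). The next smallest p-values among the 138 genes were those of ABHD17A, TMEM154, C6orf58, S100A8 and ANXA2R, with differences of 1.14, 1.19, 1.37, 1.49 and 0.80, none of which passed. ABHD17A was not well above background on any LY294002, 100 nM AG014699 or combination array, so its difference rests largely on values near background.

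**Figure D4:**
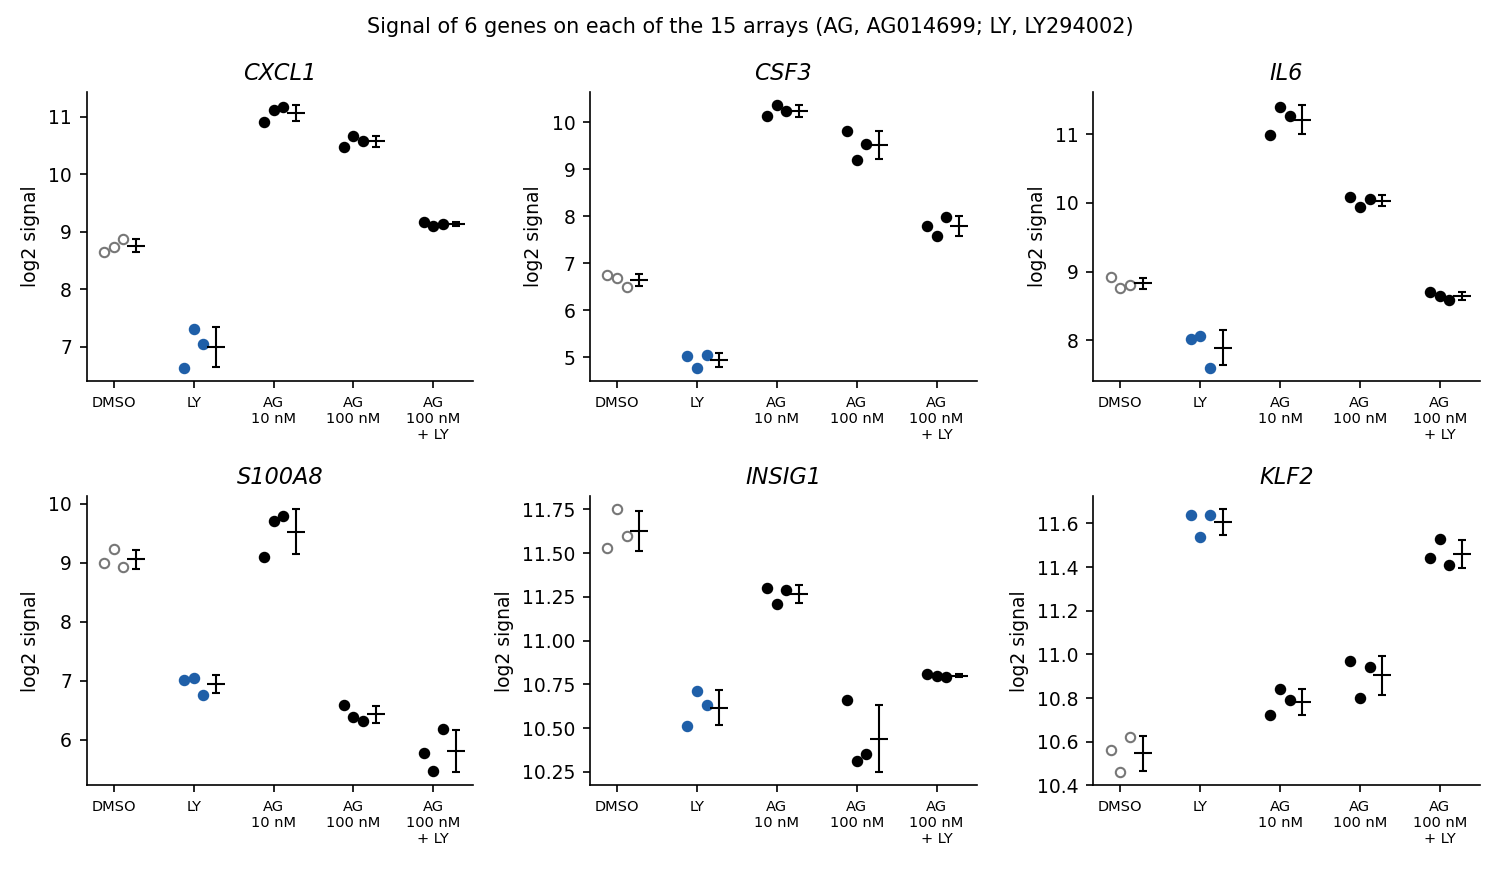
Log2 signal of 6 genes on each of the 15 arrays, by group, with the mean and SD of the 3 arrays beside the points. AG is AG014699 and LY is LY294002, and each panel has its own scale, which does not start at 0. CXCL1, CSF3 and IL6 are lowest with LY294002 alone, S100A8 is low in every group with LY294002 or 100 nM AG014699, and KLF2 is high in both groups with LY294002.

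LY294002 was also set directly against 100 nM AG014699, since their changes against DMSO share the same DMSO arrays. Between the drugs 2986 genes differed (24.3%), 1542 higher (12.5%) and 1444 lower (11.7%) with LY294002. In the inflammatory list 24 of 34 genes were lower and 3 higher with LY294002. Of 24 RNAs without a poly(A) tail 18 were lower and 0 higher. CXCL1 differed by -3.57 (adjusted p = 6.4e-10) and IL1B by -3.58 (adjusted p = 8.37e-11). SPRY1 was higher with LY294002 by 2.26 (adjusted p = 1.88e-06). These differences hold the changes by both drugs. Against DMSO, 100 nM AG014699 had CXCL1 at 1.81, IL1B at 2.66 and SPRY1 at -1.20, and the inflammatory list at a median of 1.57. Genes for which no difference between the drugs was detected included INSIG1 at 0.18 (adjusted p = 0.322), HMGCS1 at -0.24 (adjusted p = 0.15), PSAT1 at -0.03 (adjusted p = 0.893) and S100A8 at 0.51 (adjusted p = 0.0776). Against DMSO these 4 genes stood at -1.19, -0.50, -0.68 and -2.62 with 100 nM AG014699.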

How the data were processed

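Total RNA of MDA-MB-436 cells was labelled with biotin and measured on Illumina HumanHT-12 v4 bead arrays, 3 for each of 5 groups, per the labels. The authors deposited a table of probe signal intensity, which its header calls non-normalized, with a detection p-value per probe and array. Medians of 114 to 115 on every array show that intensities had been matched between arrays, and the formula of the detection p-value is not given in the sources used here. The authors also deposited log2 values, which equal the log2 intensity minus the probe's mean to within 1e-07 on 13867 probes with no blank.

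Of 48107 probes 2 had missing signals and were left out. Signals were background-corrected with the detection p-values, quantile-normalized and put on the log2 scale (neqc of limma 3.58.1, offset 16, R 4.3.3). Symbols came from the platform annotation, updated through the current gene table (17514 of 17526 probes matched). Of 23680 kept probes 16577 had 1 symbol, and each gene was represented by its probe with the highest mean signal. Linear models with 1 mean per group were fitted to all 15 arrays with limma's moderated test (10 residual and 4.8 prior degrees of freedom), with Benjamini-Hochberg adjustment of the p-values across all 12300 genes. A bound ("at least") was given where no array of a group had the probe detected. Named genes were the 15 largest rises and falls, up to 4 called members per list and direction, 17 genes named whatever their value (some are not reported here), and the 6 smallest interaction p-values. The members and the 41 gene lists were chosen with earlier results of these data known. Fits were tested on simulated data. The number of arrays limits the precision.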

Additional observations from a re-analysis of the deposited data

Results flagged for a closer look

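INSIG1 was picked out because its change by LY294002 differed with the PARP1 inhibitor present. The change with 100 nM AG014699 minus that without was 1.37 on the log2 scale (SE 0.17, limma, adjusted p = 0.012). INSIG1 fell on every LY294002 array against DMSO, and its 3 combination arrays all lay above the 3 arrays of 100 nM AG014699. A second INSIG1 probe of lower signal gave a change of -1.09 (adjusted p = 0.0654) and a difference of 1.07 (adjusted p = 0.651).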

How the results depend on the processing

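The 138 genes (63 higher, 75 lower) became 282 (156, 126) with quantile normalization without background correction, 280 (152, 128) with signals as deposited, 268 (149, 119) with the authors' deposited log2 values, 218 (110 higher) with normexp, 214 (105 higher) with an offset of 50, 318 (160, 158) with array weights, 232 (116, 116) with an intensity trend, 52 (18, 34) at an adjusted p under 0.01, 31 (10, 21) without all arrays numbered 1, and 23 (7, 16) with only 6 arrays in the fit. Higher genes were 102 among probes detected on all 15 arrays and 38 with the most variable probe. Leaving out 1 array gave 64 to 113 genes, 18 to 51 higher and 42 to 62 lower. For LY294002 added to AG014699 the 41 genes became 129, 126, 101, 88, 79, 78, 62 and 9 with quantile alone, signals as deposited, the authors' values, normexp, offset 50, the trend, detection on all arrays and no arrays numbered 1, and 20 to 35 without 1 array. The 1 interaction became 14, 13, 10, 6, 5 and 5 with the first 5 of these and the trend, 2 with array weights, 0 with the most variable probe or without arrays numbered 1, and 0 to 1 without 1 array. The cause of these shifts was not tested, except that fewer arrays entered some fits. The count of genes that differed from 100 nM AG014699 stayed between 2162 and 3356 in every alternative. With the replicate number as a block 187 genes were called (133 of them among the 138), and 80 for LY294002 added to AG014699. Deviations of same-numbered DMSO and LY294002 arrays correlated at 0.32, 0.07 and 0.18 (other pairs -0.25 to 0.09) and those of the AG014699 and combination arrays at 0.12, -0.05 and 0.17. Numbers 1 and 3 thus deviated together and number 2 did not, which falls short of a pairing over all numbers. Of 1951 alternatives for named called genes 1508 kept the call, 442 kept the direction only, and 1 turned it. That was FGFR3 at -0.12 (adjusted p = 0.625) in the authors' values, where another probe stood for the gene. Of 90 named called genes 40 kept the call without any 1 array. The 2-fold count was 8 to 15 under the other background corrections, and why was not tested.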

Other observations

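Several called genes outside the lists, chosen after their values were seen, act in metabolism. ACOX2, a peroxisomal oxidase of bile acid intermediates, had signals of 8.93, 8.72 and 8.83 on the DMSO arrays and of 7.80, 7.83 and 7.71 on the LY294002 arrays, and fell by 1.04 (SE 0.15, limma, adjusted p = 0.00223). ACAT2, an acetyl-CoA acetyltransferase, had 11.29, 11.01 and 11.04 against 10.46, 10.16 and 10.24, and fell by 0.82 (SE 0.13, adjusted p = 0.00536). Neither gene had overlapping groups, which held for every called gene, and both calls held without any 1 of the 6 arrays. Among 22 alternatives of processing and fit, the ACAT2 call ended in 3 (limma, adjusted p up to 0.185). The ACOX2 call ended in 1 of them (adjusted p = 0.0549). IDH1, the cytosolic isocitrate dehydrogenase gene, fell by 0.80 (SE 0.16, adjusted p = 0.0271), a call that ended without any 1 of the 6 arrays (adjusted p = 0.0507 to 0.113). BCAT1, which starts the breakdown of branched amino acids, fell by 1.07 (SE 0.24, adjusted p = 0.0461), a call kept only without LY294002 array 2 and otherwise ended (adjusted p = 0.0508 to 0.167).

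Further such genes were called again when LY294002 was added to AG014699, among them GAL, SEMA6C, SHISA2 and the 3 described next. GAL fell by 0.85 and was at -0.99 (adjusted p = 0.012) with AG014699. SEMA6C rose by 0.92 and SHISA2 by 0.83, with 0.91 (adjusted p = 0.0282) and 0.82 (adjusted p = 0.0215) in the presence of AG014699. The calls of GAL, SEMA6C and SHISA2 against DMSO each ended without 1 or more of the 6 arrays. ZC3H12A, an RNase that degrades cytokine RNAs, had 8.28, 8.25 and 8.04 against 7.35, 7.31 and 6.85, and fell by 1.02 (SE 0.15, adjusted p = 0.00257), with -0.82 (adjusted p = 0.0282) in the presence of AG014699. AP1M2, an adaptor gene of epithelial sorting, fell by 0.87 (SE 0.12, adjusted p = 0.0018) and was at -0.82 (adjusted p = 0.0052) with AG014699. The ZC3H12A and AP1M2 calls against DMSO held without any 1 of the 6 arrays. Each ended in 2 of 22 alternatives of processing and fit (limma, adjusted p up to 0.0974). ADORA2A, an adenosine receptor gene, fell by 0.70 (adjusted p = 0.0178) and was at -0.92 (adjusted p = 0.0052) with AG014699, and its first call ended without DMSO array 2 or 3 or LY294002 array 2 (adjusted p = 0.0789 to 0.0949) and without background correction (adjusted p = 0.0832). HES1, a Notch target gene that was not called with AG014699 (0.10, adjusted p = 0.851), rose by 0.82 (SE 0.16, adjusted p = 0.022), a call that ended without any DMSO array or without LY294002 array 1 or 2 (adjusted p = 0.064 to 0.101), and without background correction (adjusted p = 0.055).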
